A study of Mus musculus with 11 samples.

Results

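Whole hearts of mice lacking both liver X receptors were compared with wild-type hearts, across all genes of the RNA sequencing tables. The members are 6 libraries of the 11 in the series, chosen by their sample titles: 3 titled as LxRαβ DKO, here LXR-DKO, and 3 titled as WT. The remaining 5 libraries come from mice whose CD169-expressing macrophages were removed (Macrophage-depleted, n = 3) and from mice without Mertk, a receptor for the uptake of dead cells (Mertk-KO, n = 2), and serve here as further reference hearts. All mice were males of 8 to 12 weeks, and RNA was taken from whole frozen hearts with Trizol and amplified with the Ovation single-cell kit. The WT mice had received diphtheria toxin, at 0.01 µg per g of body weight, over 3 weeks, as had the Macrophage-depleted mice, which carry the CD169-DTR allele. The labels give no toxin for the LXR-DKO and Mertk-KO mice, so the receptor genotype and toxin cannot be told apart in the comparison with WT. The strain background of the groups and the part of each receptor gene that the alleles remove are not given either.

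Liver X receptor alpha, encoded by Nr1h3, and liver X receptor beta, encoded by Nr1h2, are nuclear receptors for oxysterols, the oxidised derivatives of cholesterol. They bind DNA together with retinoid X receptors, at paired half-sites, and switch on genes that export cholesterol from the cell (Abca1, Abcg1), carry it in lipoproteins (Apoe, Pltp), lower its uptake (Mylip) and make fatty acids (Srebf1, Fasn, Scd1). Without ligand they hold corepressors at such genes, so that loss of both receptors can lower some targets and raise others. In macrophages they also act on Mertk and on inflammatory genes.

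Values are normalised counts: the reads of a gene, recovered from the deposited table, divided by the effective size of the library and set to the mean size of the 11 libraries. The LXR-DKO libraries held 12658550 to 16534157 estimated reads and the WT libraries 14295229 to 14860043. Cardiomyocyte markers were high in all 6 libraries, with summed levels of 817597 to 888042 in WT and 898565 to 921009 in LXR-DKO. Across genes, log values of replicates correlated at 0.976 to 0.983 within LXR-DKO and at 0.982 to 0.985 within WT, against 0.968 to 0.979 between the groups. Short transcripts were high in LXR-DKO relative to WT. Across 13871 genes, each library's difference from the WT mean was set against transcript length by Spearman correlation. For a WT library, the mean of the other WT libraries was used. The correlation was -0.25, -0.374 and -0.142 in the 3 LXR-DKO libraries and between -0.0228 and 0.0275 in WT. The Mertk-KO libraries had values of -0.255 and -0.5, the former within the LXR-DKO range. They stood apart on the first axis of a principal component analysis, at 40.2 and 39.6 against at most 13.3 in the other libraries. The labels do not state whether libraries stand for separate mice, so p-values measure the spread between libraries, which may be technical.

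Of 13884 genes averaging 10 normalised counts or more, 58 passed the threshold (limma, Benjamini-Hochberg adjusted p below 0.05), which is 0.418% of those tested: 30 were higher in LXR-DKO hearts and 28 lower. The count depends on the model: 124 genes passed with only the 6 compared libraries fitted, and 593 with a weight for each library. The 2 receptor genes were among the lower ones. The others were a mixed group of channels, transporters, enzymes, pseudogenes and unnamed transcripts. With pseudogenes and predicted models set aside, Kcnj14 among higher genes and Slc6a17 among lower ones changed most on the log2(normalised count + 1) scale. The potassium channel Kcnj14 was 60.5-fold higher, and the transporter Slc6a17 fell to 2.29% of its WT level. Gabrg3, with few reads in WT, rose about as far as Kcnj14 (ratio 61.4), and Klk1b22 had no WT reads (at least 51.6-fold). On the log2 scale the pseudogenes Gm5900 and Gm10093 rose further, and E330017L17Rik fell further (-5.255 against -4.894 for Slc6a17). E330017L17Rik went from 110 reads in WT to 0. That is at least 37.4-fold lower when 3 reads in the LXR-DKO group are taken as the floor. None of the tested genes listed for cholesterol export passed. At an unadjusted p below 0.05 there were 1601 genes (11.5%), 886 higher (6.38%) and 715 lower (5.15%). All 58 called genes had libraries that did not overlap between the groups, against 22.7% of all genes tested. The calls were made on these same libraries, so the lack of overlap describes them and is not separate support. Whichever single library was left out of the fit, 30 of the 58 still passed. Without WT 2, 27 of the 58 no longer passed, without WT 1 or WT 3, 23 and 24, without LXR-DKO 2 or 3, 25 each, and without LXR-DKO 1, 17. Between 31 and 44 genes passed in all with 1 of these libraries left out. Removing a Macrophage-depleted library ended 10 to 14 calls and removing a Mertk-KO library ended 0, while 118 and 116 genes then passed in place of 58. Differences are of log2(normalised count + 1), which understates the change of genes with few reads. Values given as fold or as a percentage of WT are ratios of group means, apart from ratios and bounds taken from reads.

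**Figure D1:**
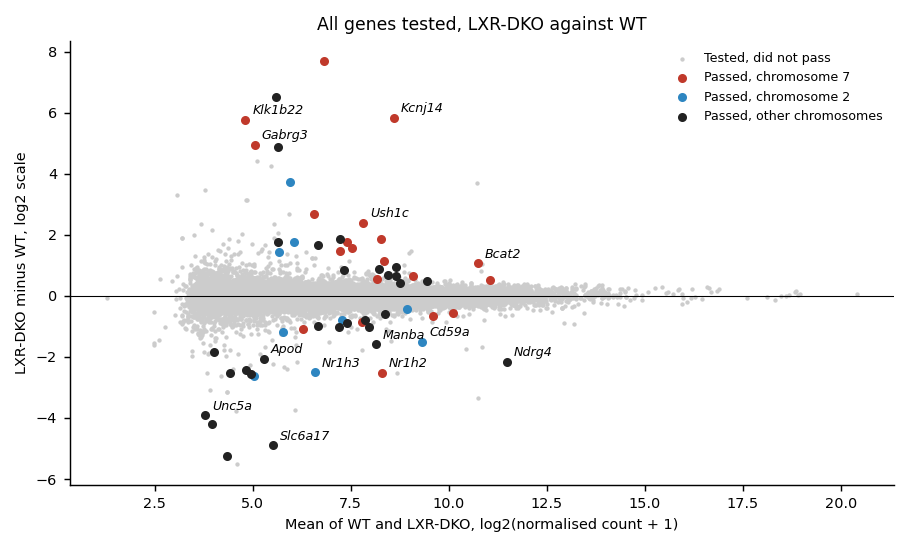
Each point is 1 of the 13884 genes tested, with its mean level in WT and LXR-DKO hearts (n = 3 each) on the x axis and the difference LXR-DKO minus WT on the y axis, both on a log2 scale. The 58 genes that passed are coloured by chromosome: 20 lie on chromosome 7, 9 on chromosome 2 and 29 elsewhere, and most genes of the heart lie close to 0.

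The targeted genes were examined first. Nr1h3 (ENSMUSG00000002108; GRCm38 chr2:91184061-91202834) gave 157.4, 154.6 and 172.9 normalised counts in WT hearts and 25.9, 29.0 and 28.3 in LXR-DKO. Nr1h2 (ENSMUSG00000060601; chr7:44549616-44553951) had 543.3, 525.2 and 525.0 in WT and 85.2, 91.7 and 99.6 in LXR-DKO. Both receptors were far lower in every LXR-DKO library than in any of the 8 other libraries, where Nr1h3 ranged from 145.5 to 176.6 and Nr1h2 from 525.0 to 687.8. The differences were -2.50 for Nr1h3 (SE 0.12, limma adjusted p 6.01e-07) and -2.52 for Nr1h2 (SE 0.09, limma adjusted p 3.25e-08). Of the WT level 17.2% remained for Nr1h3 and 17.4% for Nr1h2, and a sum over the gene does not say from which exons they came. In the second deposited table, which holds normalised TPM and may count other transcripts, the falls were smaller. Nr1h3 had a mean of 6.54 there in LXR-DKO and 9.57 in WT (difference -0.49, adjusted p 0.343), and Nr1h2 17.6 and 29.8 (-0.73, adjusted p 0.0169). On its values 40 genes passed, or 0.288% of the 13884 tested.

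None of the tested members of a list of cholesterol efflux and lipoprotein targets of the liver X receptors passed the threshold in LXR-DKO. Apod, a carrier of small lipids that did pass, is not on this list. Of 15 listed genes 10 were tested, 5 of them above and 5 below WT, as 50.2% of all tested genes were above it, with a median difference of -0.01 against 0.00 for all genes tested. The not tested members Abcg5, Abcg8, Apoc1 and Apoc2 had group means of at most 3.03 normalised counts, and Cetp is not analysed here. The promoters of 3 target genes hold letters like the receptors' paired half-site in the 250 bases before the gene start. They are shown because Abca1, the best known efflux target, lay close to WT while LXR-DKO Srebf1 counts lay below those of every other library. The motif searched was GGTNA, then 5 bases of any kind, then GGTNA again, on both strands. With the N of each GGTNA set to C, no target gene held it (0 of 23), nor did any of the 43 called genes in the table, against 0.0703% of all promoters. The RefSeq promoter sequences (GRCm38.p6) run 5′ to 3′ on the gene's strand, and capitals mark the match, which lies on the opposite strand and so reads as the reverse complement of the motif.
Abca1, chr4:53159896-53160145, minus strand: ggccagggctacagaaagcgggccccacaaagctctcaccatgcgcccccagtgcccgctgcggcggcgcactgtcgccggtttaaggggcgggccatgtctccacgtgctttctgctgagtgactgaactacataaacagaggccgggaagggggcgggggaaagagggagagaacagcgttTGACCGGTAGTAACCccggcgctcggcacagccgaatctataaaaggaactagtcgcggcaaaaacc
Srebf1, chr11:60210472-60210721, minus strand: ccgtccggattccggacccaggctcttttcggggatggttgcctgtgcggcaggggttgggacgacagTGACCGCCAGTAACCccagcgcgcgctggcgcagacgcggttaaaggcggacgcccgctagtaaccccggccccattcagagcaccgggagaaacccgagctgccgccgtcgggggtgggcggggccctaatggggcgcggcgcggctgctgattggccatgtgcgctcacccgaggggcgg
Fasn, chr11:120824548-120824797, minus strand: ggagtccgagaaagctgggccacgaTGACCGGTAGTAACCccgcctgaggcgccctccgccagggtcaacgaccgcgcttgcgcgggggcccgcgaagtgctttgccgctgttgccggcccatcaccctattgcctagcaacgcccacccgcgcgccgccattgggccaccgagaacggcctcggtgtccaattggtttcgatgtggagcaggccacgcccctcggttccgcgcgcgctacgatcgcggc
The match to the looser motif lies 67 bases before the start in Abca1, 182 in Srebf1 and 225 in Fasn. It occurred in 3 of 23 target genes with a promoter in the table, in 0.707% of the promoters of all 27025 genes, in 0.471% of those of tested genes and in 0 of 43 called genes. A match is a description of letters, and binding was not tested here.

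Abca1, the transporter that loads cholesterol onto apolipoprotein A-I, had 568.9, 504.7 and 646.5 normalised counts in WT against 637.3, 521.3 and 698.0 in LXR-DKO. The groups overlapped, and the difference was 0.11 (SE 0.17, limma adjusted p 0.845). Abcg1, which exports cholesterol to high-density lipoprotein, had 59.6, 66.5 and 52.4 in WT and 101.0, 95.3 and 65.4 in LXR-DKO. Its difference of 0.53 (SE 0.21, limma adjusted p 0.391) did not pass and lay on the higher side. Apoe, the lipoprotein ligand secreted by macrophages, had 2924, 2835 and 2491 in WT and 2409, 2444 and 2139 in LXR-DKO, without overlap but with a difference of only -0.24 (SE 0.14, limma adjusted p 0.528). Mylip, the ubiquitin ligase that removes the LDL receptor, was at -0.39 (limma adjusted p 0.350), and the phospholipid transfer protein Pltp at 0.15 (limma adjusted p 0.694).

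The lipogenic and other targets moved in both directions. Of 20 listed genes 19 were tested, with 8 above and 11 below WT and a median difference of -0.06, and Nr1h3, the receptor itself, was the only one that passed. Srebf1, which encodes the transcription factor of fatty acid synthesis SREBP-1, had 516.6, 455.5 and 516.1 normalised counts in WT against 377.0, 324.2 and 292.5 in LXR-DKO. Every LXR-DKO library was below all 8 others for Srebf1, and the difference was -0.59 (SE 0.12), short of the threshold against WT (limma adjusted p 0.0675). Against the mean of the 3 other groups, a comparison that shares the LXR-DKO and WT libraries, Srebf1 was at -0.56 and passed (limma adjusted p 0.0204). In the TPM table the groups overlapped for Srebf1, at 12.55, 9.81 and 9.65 in LXR-DKO against 16.29, 19.92 and 11.71 in WT. Its difference from WT there was -0.52 and did not pass (limma adjusted p 0.35).

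Scd1, the stearoyl-CoA desaturase, went the other way with 275.2, 284.6 and 179.6 normalised counts in WT against 663.0, 1419 and 329.0 in LXR-DKO. The LXR-DKO libraries were all above the other 8, yet they spread widely among themselves, and the difference of 1.48 (SE 0.39) did not pass against WT (limma adjusted p 0.211). Pnpla3, a lipase of lipid droplets, had 27.4, 21.0 and 22.0 in WT and 62.2, 66.9 and 47.4 in LXR-DKO, a difference of 1.28 (SE 0.32, limma adjusted p 0.172). Elovl5, which elongates polyunsaturated fatty acids, was at 0.30 and Lpcat3, which places them in phospholipids, also at 0.30 (limma adjusted p 0.258 and 0.295). These 4 genes were higher in each LXR-DKO library than in each of the 8 others, a pattern that 2.82% of all tested genes showed in either direction. Against the other 3 groups together Pnpla3 was at 1.67 (limma adjusted p 0.0103), Scd1 at 1.65 (0.0418), Elovl5 at 0.47 (0.00884) and Lpcat3 at 0.30 (0.138).

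Adipocyte markers varied between these libraries. Their summed level was 123.4, 187.4 and 83.9 in WT and 177.8, 356.4 and 131.7 in LXR-DKO, with all 5 tested markers above WT and none past the threshold, and with Lep and Ucp1 at 0 in every WT library. LXR-DKO 2 held both the highest adipocyte sum and the highest Scd1. The adipocyte sums of LXR-DKO 1 and LXR-DKO 3 lay within the WT range. In LXR-DKO 3, Scd1 was 329.0 and Pnpla3 47.4. Fasn, the fatty acid synthase, had 488.1, 438.2 and 432.1 in WT and 399.3, 716.9 and 217.7 in LXR-DKO, again highest in LXR-DKO 2, so that its difference of -0.19 (SE 0.35, limma adjusted p 0.870) carries a wide error. The part of fat cells in these values was not tested. In bulk tissue, fewer cells of a type and less RNA per cell cannot be told apart.

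Fads2, the delta-6 desaturase, was at -0.86 (SE 0.25, limma adjusted p 0.267), with 54.2, 62.5 and 45.1 normalised counts in WT against 34.5, 36.2 and 19.5 in LXR-DKO. Mertk, the receptor by which macrophages take up dead cells, was at -0.45 (SE 0.17, limma adjusted p 0.364), or 72.8% of WT. Both genes had lower values in each LXR-DKO library than in each WT library without passing. Of all genes tested, 22.7% had no overlap between the 2 groups, in either direction. Of the others, Tgm2 was at 0.06, Fads1 at 0.04 and Mlxipl at 0.01, close to WT.

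**Figure D2:**
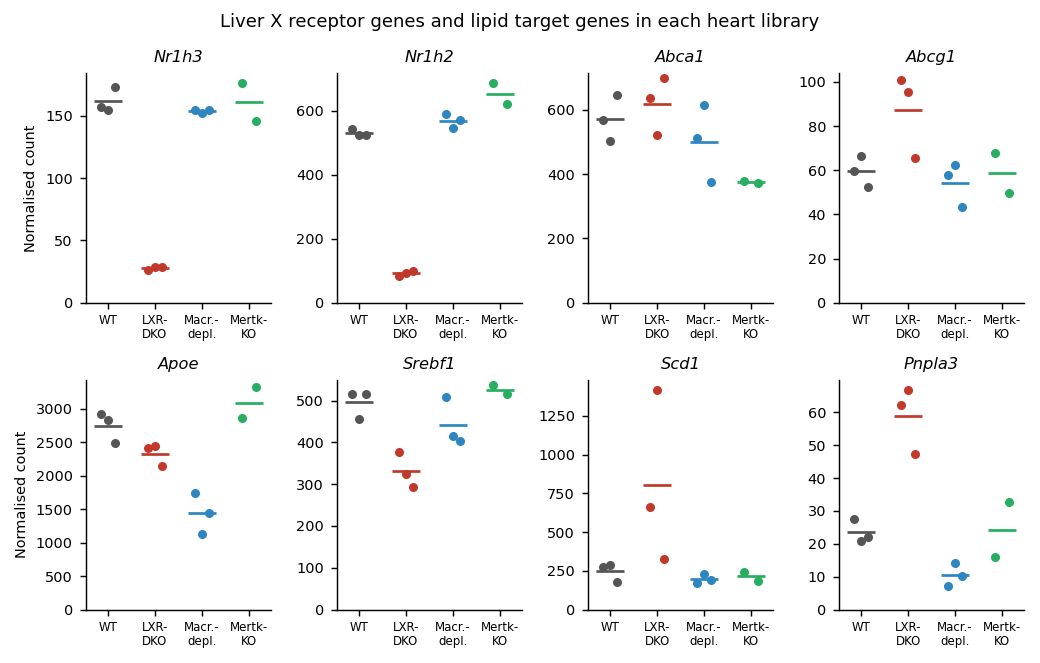
Normalised counts of the 2 receptor genes and 6 lipid target genes in each of the 11 heart libraries, by group (points, with the group mean as a line; y axes start at 0). Nr1h3 and Nr1h2 fall in all 3 LXR-DKO libraries, Srebf1 lies below all other libraries, Scd1 and Pnpla3 lie above them, and Abca1 overlaps with WT.

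Related sterol and lipid genes were close to WT. Of 26 tested genes of sterol synthesis and LDL uptake 12 were above and 14 below, none passed and the median difference was -0.03, with Pmvk, phosphomevalonate kinase, at 0.36 (limma adjusted p 0.376) and Cyp51, lanosterol demethylase, at -0.29 (limma adjusted p 0.397). Of 16 partners and cofactors of the receptors, only Nr1h2 and Nr1h3 themselves passed. Next in that list came the acetyltransferase Ep300 at -0.41 (limma adjusted p 0.217). None of 34 genes of fatty acid uptake and oxidation passed (median 0.02), nor of 23 genes of triglyceride storage (median 0.03), nor of 6 tested genes of oxysterol and bile acid metabolism (median -0.10). Pdk4, the kinase that restrains glucose oxidation, had 9838, 5434 and 2554 normalised counts in LXR-DKO against 9077 to 9988 in WT, so that LXR-DKO 1 was at the WT level and LXR-DKO 3 well below it.

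The genes that rose furthest started from a low level in heart. Kcnj14, which encodes the inward rectifier potassium channel Kir2.4 (ENSMUSG00000058743; chr7:45816460-45824782), had 11.7, 9.21 and 16.8 normalised counts in WT against 739.2, 773.3 and 766.4 in LXR-DKO. No other library exceeded 21.2, and the difference was 5.85 (SE 0.25, limma adjusted p 1.74e-07). Klk1b22, a serine protease of the kallikrein family, had 0 reads in all 8 other libraries and 59.3, 55.5 and 46.9 normalised counts in LXR-DKO. Against a floor of 3 reads over the WT group this is at least 51.6-fold higher (limma adjusted p 0.00135). Gabrg3, the gamma 3 subunit of the GABA-A receptor, had 3 reads in WT and 188 in LXR-DKO, a ratio of 61.4 with a 95% counting interval of 20.7 to 300.2 (limma adjusted p 0.000229). These intervals and floors cover counting error only, since amplified reads are not independent molecules.

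Ush1c, which encodes the scaffold protein harmonin of hair cells, had 79.8, 46.1 and 93.3 normalised counts in WT against 353.9, 452.5 and 323.1 in LXR-DKO. That is 5.16-fold higher without overlap (difference 2.40, SE 0.22, limma adjusted p 0.000219). Abca4, the retinoid transporter of photoreceptors, rose from 64.2 ± 11.4 (SD, n = 3) to 234.0 ± 7.39 (limma adjusted p 0.00531). Lrrc4b, a synaptic adhesion protein, rose from 128.7 ± 6.68 (SD, n = 3) to 486.0 ± 159.2, with LXR-DKO 3 at 669.5 and the other 2 at 385.4 and 403.0 (limma adjusted p 0.0011).

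Several enzymes and vesicle proteins of general use rose as well. Bcat2, the mitochondrial enzyme that starts the breakdown of branched-chain amino acids (ENSMUSG00000030826; chr7:45570153-45589711), had 1136, 1144 and 1019 normalised counts in WT against 2229, 2402 and 2288 in LXR-DKO. It was 2.10-fold higher without overlap (difference 1.07, SE 0.09, limma adjusted p 5.25e-05), and the TPM table gave the same size (1.09, adjusted p 0.000236). Hddc3, a nucleotide phosphohydrolase, was 3.57-fold higher (limma adjusted p 0.00547), and shares much of its sequence with Gm18310, whose difference had the opposite sign without passing. Higher too were Gchfr, the feedback regulator of tetrahydrobiopterin synthesis, 3.48-fold (0.000229), and Gcnt1, which branches O-linked glycans, 3.20-fold (0.00451). Enpep, aminopeptidase A of the angiotensin pathway, rose from 211.2 ± 31.7 to 386.5 ± 24.1 (SD, n = 3; limma adjusted p 0.00386). Slc2a12, the glucose transporter GLUT12, rose from 113.5 ± 1.63 to 204.7 ± 14.3 (limma adjusted p 0.0103). Igsf23, an immunoglobulin superfamily member, rose 6.12-fold (0.0165). At smaller size rose Klhdc8a (1.58-fold), Cdc14b, a phosphatase (1.61-fold), Ciapin1, which helps to build cytosolic iron-sulphur proteins (1.41-fold), and H2afy, the histone variant macroH2A1 (1.33-fold).

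Among genes that fell, Slc6a17, a vesicular amino acid transporter of neurons (ENSMUSG00000027894; chr3:107467543-107518018), had 103.1, 64.5 and 94.3 normalised counts in WT against 1.85, 1.21 and 2.93 in LXR-DKO. The 5 other libraries lay between 51.7 and 70.4, well above the LXR-DKO hearts (difference -4.89, SE 0.27, limma adjusted p 1.58e-06). Unc5a, a netrin receptor, had 72 reads in WT and 2 in LXR-DKO, a ratio of 0.0272 with a 95% counting interval of 0.00323 to 0.102 (limma adjusted p 0.00107). Xlr3b, an X-linked lymphocyte-regulated gene, had 81 and 2 reads (ratio 0.0242, interval 0.00288 to 0.0902, limma adjusted p 0.0115), and its transcript is 98.0% identical to that of Xlr3a, so the split of reads between them is uncertain.

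Ndrg4, a gene abundant in heart and brain (ENSMUSG00000036564; chr8:95676980-95715119), had the highest level of all lower genes: 6040, 3858 and 4054 normalised counts in WT against 1078, 1287 and 759.5 in LXR-DKO. All other libraries held at least 3636, and the fall to 22.4% of WT (difference -2.16, SE 0.19, limma adjusted p 0.000152) was of the same size in the TPM table (-2.05, adjusted p 0.000668). Apod, a lipocalin that carries small lipids, had 69.1, 66.5 and 49.3 in WT and 11.1, 14.5 and 16.6 in LXR-DKO. The fall was to 22.8% of WT (limma adjusted p 0.00442), and the 5 libraries of the other groups lay between 62.4 and 180.5. Rsl1, a zinc-finger repressor, fell from 47.0 ± 6.52 to 7.98 ± 0.874 (SD, n = 3; limma adjusted p 0.000348), and Mcub, which dampens the mitochondrial calcium uniporter, from 24.3 ± 3.19 to 6.19 ± 1.98 (limma adjusted p 0.0316). Tmem56 fell to 15.6% of WT (limma adjusted p 0.0411) and Jmjd7 to 14.8% (0.0367).

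Chosen after their values were seen, further lower genes were Manba, lysosomal beta-mannosidase (419.8 ± 25.1 to 139.9 ± 9.04, SD, n = 3, limma adjusted p 2.45e-06), Slc1a5, the glutamine transporter ASCT2 (285.2 ± 32.5 to 155.8 ± 20.1, 0.0037), and Cd59a, an inhibitor of complement attack (from a mean of 945.7 to 333.0, 2.45e-06). Each had lower values in every LXR-DKO library than in every WT library. Other called genes of this kind were the hormone precursor Egf and the matrix protein Tgfbi, at 49.8% and 51.2% of WT.

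Some of these calls rested on few libraries or on 1 table. In the TPM table, on log2(TPM + 1), 52 of the 58 were tested, all with the same sign, and 25 passed. Of the genes named, Unc5a (-0.81, adjusted p 0.311), Xlr3b (-0.99, 0.265), Tmem56 (-0.64, 0.386), Mcub (-1.04, 0.253), Apod (-1.34, 0.136), Slc1a5 (-0.49, 0.298), Egf (-0.50, 0.223) and Tgfbi (-0.91, 0.0816) did not pass there. Among the higher genes the same held for Slc2a12 (0.68, 0.237), Hddc3 (0.69, 0.058), Gcnt1 (0.85, 0.058), Klhdc8a (0.56, 0.124), Cdc14b (0.53, 0.163), Ciapin1 (0.48, 0.253) and H2afy (0.33, 0.260). Slc6a17 passed at a smaller size (-1.33, 0.0274), and Gabrg3 was not tested there. With 1 library left out, the largest adjusted p was 0.101 for Igsf23 (lost without WT 2, LXR-DKO 1 or LXR-DKO 2), 0.0821 for Xlr3b (WT 1, WT 2, LXR-DKO 1 or LXR-DKO 3) and 0.062 for Slc2a12 (any WT library, LXR-DKO 2 or LXR-DKO 3). The calls of Cdc14b (up to 0.151) and Egf (up to 0.0902) ended without any of the same 5 libraries as Slc2a12. Those of Jmjd7 (up to 0.202), Tmem56 (0.202), Mcub (0.185), Ciapin1 (0.201), Klhdc8a (0.175), H2afy (0.204) and Tgfbi (0.258) ended without WT 2 or LXR-DKO 1, among 6 to 9 libraries whose removal ended each. The other genes described in these paragraphs passed without each library in turn, with a largest adjusted p of 0.0412, for Hddc3.

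**Figure D3:**
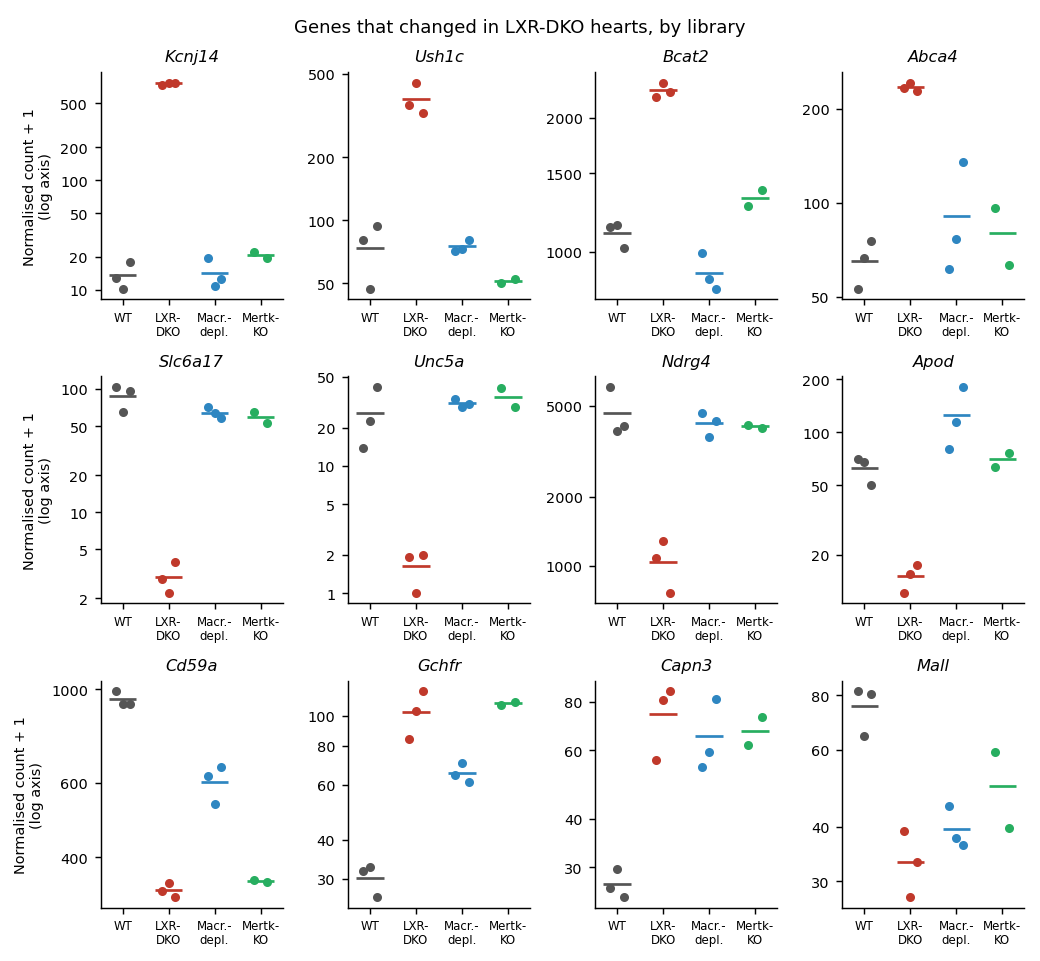
Normalised counts plus 1 of 12 called genes in the 11 libraries, by group, on log axes that differ between panels (points, with the group mean as a line). In the upper and middle rows the LXR-DKO libraries stand apart from the other 8; in the lower row (Cd59a, Gchfr, Capn3 and Mall, all on chromosome 2) the WT libraries stand apart from the rest.

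For most called genes the LXR-DKO hearts were the ones that stood apart, but not on chromosome 2. The 3 LXR-DKO libraries lay outside the range of all 8 others for 46 of the 58 genes, a pattern of 2.82% of all genes tested. The WT libraries lay outside the range of the 8 others for 11 genes (1.25% of all genes tested), Cd59a and Gabrg3 being in both sets, and 8 of these are on chromosome 2, where 9 genes were called: Cd59a, Mall, Casc4, Jmjd7 and Ndufaf1 were highest in WT, and Gchfr, Capn3 and Gm14085 lowest. In WT hearts Cd59a had 922.1 to 990.9 normalised counts, against 533.4 to 654.3 in Macrophage-depleted, 347.7 and 351.6 in Mertk-KO and 320.4 to 346.4 in LXR-DKO, so that LXR-DKO was also below all others. Gchfr had 25.2 to 31.7 in WT and 83.4 to 119.1 in LXR-DKO, with 107.6 and 109.9 in Mertk-KO and 60.4 to 69.3 in Macrophage-depleted. Capn3, the calpain of muscle, had 24.1 to 28.7 in WT and 53.5 or more in every other library. In the TPM table Capn3 did not pass (0.58, limma adjusted p 0.406). The Macrophage-depleted and Mertk-KO libraries had 145.5 to 176.6 normalised counts of Nr1h3, against 154.6 to 172.9 in WT. For Nr1h2 they had 545.8 to 687.8, against 525.0 to 543.3 in WT. Over all 1108 tested genes of chromosome 2, WT stood apart from the 8 others in 2.89% and LXR-DKO in 2.71%. Chromosome 2 also holds Mertk and Siglec1, the gene of CD169, which start 37.5 and 39.9 Mb from the start of Nr1h3. The alleles of the Mertk-KO and Macrophage-depleted mice thus concern genes of this chromosome too. Their part in these values was not tested.

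The called genes were unevenly placed along the genome. Chromosome 7, which holds Nr1h2, had 20 called among 1096 tested genes (1.83%), 15 higher and 5 lower, and chromosome 2, which holds Nr1h3, had 9 of 1108 (0.812%). The remaining chromosomes together had 29 of 11667 (0.249%), with 7 on chromosome 3 and 6 on chromosome 13. Within 2 Mb of the start of Nr1h2, 7 of 93 tested genes were called (7.53%): Klk1b22, Lrrc4b, Nr1h2 itself, Bcat2, Rpl18, Kcnj14 and Ush1c, of which Nr1h2 was lower and the other 6 were higher. The same 7 were the called genes of a window of 10 Mb, which held 145 tested genes. Rpl18, a ribosomal protein, was 1.44-fold higher (1749 ± 32.2 to 2511 ± 197.5, SD, n = 3, limma adjusted p 0.0298, lost without any WT or LXR-DKO library or without Macrophage-depleted 3, up to 0.177). Within 10 Mb of Nr1h3, by contrast, only Nr1h3 was called among 79 tested genes.

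Called genes also lay near each other away from both receptor genes. Of the 58 called genes 37 (63.8%) had another called gene within 5 Mb, against 15.6% of the genes that were tested and not called. Outside chromosomes 2 and 7 the shares were 51.7% (15 of 29) and 11.9%. On chromosome 7, a stretch of 3.63 Mb starting at 16320234 held Sae1, Slc1a5, Pnmal2, Trappc6a and Igsf23, 5 called of 64 tested, and one of 4.35 Mb starting at 80261215 held Ngrn, Hddc3, Homer2 and Fah, 4 of 49. On chromosome 2, 3.36 Mb from 119167773 held Gchfr, Ndufaf1, Jmjd7, Capn3, Casc4 and Gm14085, 6 of 65. Enpep, Egf and Mcub lay within 0.701 Mb on chromosome 3, where 9 genes were tested, and Ciapin1 and Ndrg4 within 0.895 Mb on chromosome 8. These neighbours differed in direction: Enpep rose while Egf and Mcub fell, and Ciapin1 rose while Ndrg4 fell.

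**Figure D4:**
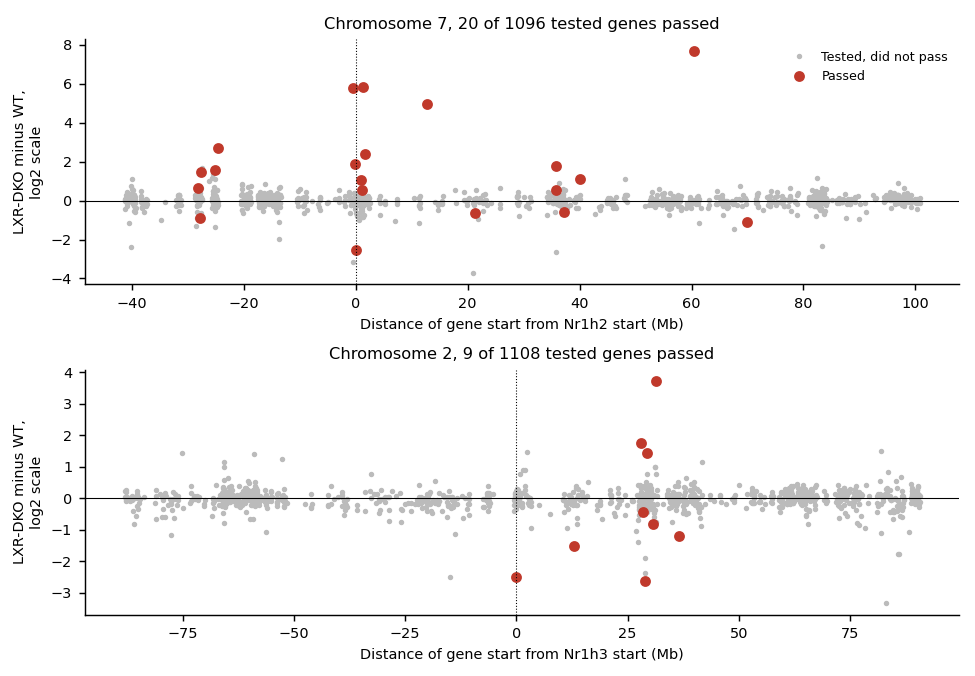
Difference LXR-DKO minus WT (log2 scale) of each tested gene against the distance of its start from that of Nr1h2 on chromosome 7 (upper panel) or Nr1h3 on chromosome 2 (lower panel), in Mb. Of the called genes (red), 7 lie within 2 Mb of the Nr1h2 start, counting Nr1h2 itself, and 1 within 2 Mb of the Nr1h3 start, which is Nr1h3.

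Among the called genes were 3 pseudogenes with a near-identical parent gene. Gm5900 (chr7:104949915-104950289) is 99.5% identical over its length to Lamtor3, a lysosomal signalling scaffold gene on chromosome 3, and had 234.0, 223.2 and 213.5 normalised counts in LXR-DKO and at most 0.246 elsewhere. Lamtor3 itself had 681.9 ± 20.5 (SD, n = 3) in WT and 543.4 ± 18.1 in LXR-DKO, and the sum of both was 682.0 ± 20.4 and 766.9 ± 8.90. In the TPM table Lamtor3 was close to WT, with means of 53.49 in WT and 52.06 in LXR-DKO (limma adjusted p 0.846). Gm5900 was uneven there, at 4.80, 1.41 and 11.81 in LXR-DKO, and did not pass (limma adjusted p 0.0572). Gm10093, 99.4% identical to the histone deacetylase gene Hdac1, had 85.3, 134.8 and 64.9 normalised counts in LXR-DKO and 0 reads in the 8 others. Hdac1 was called lower (294.9 ± 13.1 to 170.6 ± 15.1, limma adjusted p 0.00228), but the sum with Gm10093 was 265.7 ± 46.8 in LXR-DKO, which overlaps with WT. Where reads are split between copies, the level of a single copy is uncertain, so Hdac1 cannot be given a direction from these values alone. Pcna-ps2, 99.2% identical to Pcna, was near 0 in WT alone (0 to 5.77) and at 52.4 to 164.9 in all other libraries, and its sum with Pcna was 443.7 ± 8.25 in WT and 423.1 ± 36.8 in LXR-DKO. In all, 10 of the 58 called genes had another transcript at least 95% identical over 50% or more of their length. Among the genes named above these include Hddc3, identical over 70.9% of its transcript to Gm18310. Gm18310, also on chromosome 7, had 22.8 to 30.9 normalised counts in WT hearts against 12.98, 6.01 and 0 in LXR-DKO (difference -2.64, limma adjusted p 0.241), opposite to Hddc3 (74.0 ± 4.40 in WT and 263.9 ± 85.3 in LXR-DKO, SD, n = 3), whose level is uncertain on the same ground. Kcnj14 shares 46.3% of its transcript with Gm5522 at 99.1% identity.

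Energy metabolism and protein synthesis genes were slightly higher as groups, with almost no single gene past the threshold. Of 73 genes for nuclear-encoded respiratory chain subunits 69 were above WT, 33 of them at an unadjusted p below 0.05 (6.38% of all genes were that much higher), and none passed after adjustment. Their median difference was 0.21, against 0.00 for all genes tested, with Ndufs6 of complex I at 0.35 (limma adjusted p 0.255) and Atp5o of the ATP synthase at 0.26 (limma adjusted p 0.271). The summed level of the subunits was 500938 to 523947 normalised counts in WT against 557674 to 593297 in LXR-DKO, without overlap, and it was higher still in Mertk-KO (601581 and 649372). Of 43 cytosolic ribosomal protein genes 41 were above WT with a median of 0.24, and Rpl18 alone passed. Of 21 glycolysis genes 18 were above with a median of 0.16, among them Eno3, muscle enolase, at 0.34 (limma adjusted p 0.150) and the regulator Pfkfb1 at 0.77 (limma adjusted p 0.210). The Mertk-KO libraries also lay above the WT mean, with list medians of 0.25 and 0.44 for the respiratory chain, 0.23 and 0.46 for ribosomal proteins and 0.37 and 0.28 for glycolysis. Median transcript lengths were 1231 bases for the respiratory chain, 1151 for ribosomal proteins and 2681 for glycolysis, against 3381 for all genes tested. With the trend of each library with length and GC content removed, the medians became 0.10 for the respiratory chain, 0.12 for ribosomal proteins and 0.07 for glycolysis. The 13 genes of the mitochondrial genome were at 0.04 in the median, and none passed.

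Sarcomere genes (17 tested, median 0.10) and genes of calcium cycling and ion channels (23 tested, median -0.02) held no called gene. Myl3, Tnni3, Tnnc1 and Tpm1 of the contractile apparatus lay 0.22 to 0.31 above WT (limma adjusted p 0.295 to 0.391). The potassium channel Kcnd2, which carries part of the transient outward current, was at -0.39 (limma adjusted p 0.173). Genes of cardiac stress and the fetal program, 18 tested, had a median of 0.00 and none passed.

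Interferon-stimulated and antigen presentation genes were mostly below WT, and no immune or matrix gene of these lists was called. Of 28 interferon-stimulated genes 24 were below WT (median -0.24). In 7 of them each LXR-DKO library was below all 8 others, a pattern of 173 of all 13884 genes tested. Among the 7 were Oas2 at -0.42 (limma adjusted p 0.241) and Oas1a at -0.67 (0.312). Of 14 genes of antigen presentation 12 were below (median -0.35), with B2m, the light chain of class I molecules, at -0.47 (limma adjusted p 0.635). The 4 groups share 1 estimate of the spread, and the 2 Mertk-KO libraries differed widely in both lists. Their sums were 6326 and 52330 for interferon-stimulated genes and 13272 and 51159 for antigen presentation. Such a spread can widen the error of these genes, so the lack of calls says little about LXR-DKO against WT. Complement genes were divided, with 9 above and 8 below (median 0.02), as were 12 tested cytokine and chemokine genes, with 5 above and 7 below (median -0.06). Of 30 matrix genes 23 were below (median -0.10), but the libraries differed: the list median was 0.08, -0.09 and -0.38 from the WT mean in LXR-DKO 1, 2 and 3. The summed level of the matrix list was 51207 to 55590 in WT, and LXR-DKO 1 (59365) lay above that range and LXR-DKO 3 (42755) below it. Col8a1, a short-chain collagen of vessels and fibroblasts, had 324.3, 439.3 and 359.5 normalised counts in WT against 265.8, 221.9 and 189.4 in LXR-DKO, without overlap with any other library (difference -0.73, SE 0.15, limma adjusted p 0.0819). Markers of resident cardiac macrophages were below WT in 12 of 13 tested genes (median -0.20), with summed levels of 3924 to 4156 in WT and 3482 to 3695 in LXR-DKO, and none passed: Lyve1 was at -0.38 (limma adjusted p 0.423) and Timd4 at -0.75 (0.470). Of 18 markers of macrophages in general, 13 were below WT (median -0.18) and none passed. The sums of that list overlapped, with 4270 to 5202 in WT and 3586 to 4811 in LXR-DKO. The monocyte receptor Ccr2 had 54.9 to 74.1 in WT and 28.4 to 40.1 in LXR-DKO (-0.94, limma adjusted p 0.343). Whether these lists moved with the number of such cells was not tested.

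**Figure D5:**
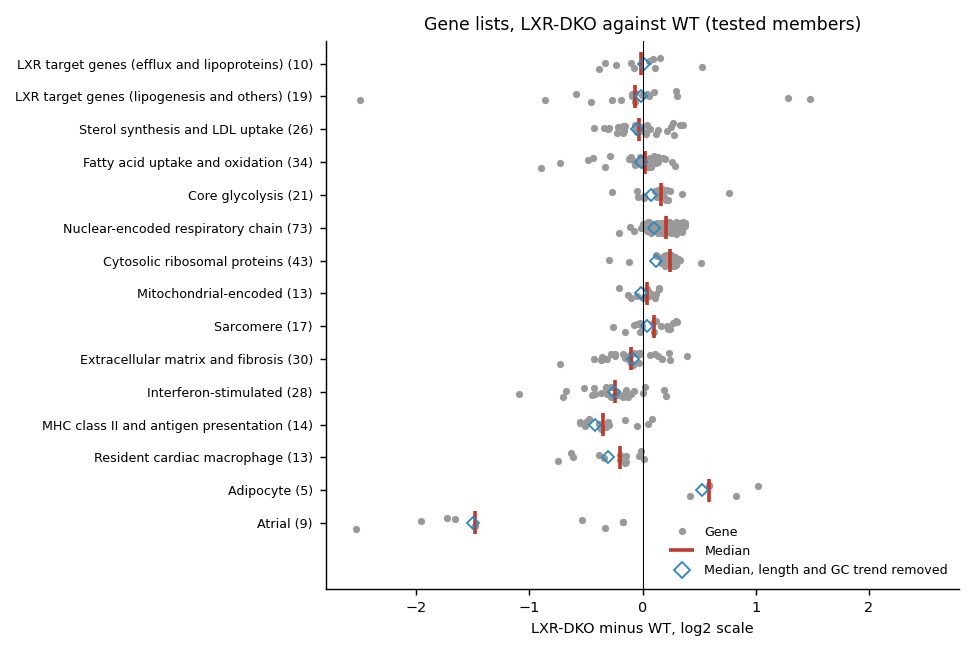
Difference LXR-DKO minus WT on the log2 scale for each tested member (points) of 15 gene lists, with the number tested in brackets, the median of the list (red line) and the median with the trend with length and GC content removed (blue diamond). The respiratory chain and ribosomal lists lie narrowly above 0 and closer to it with the trend removed, and atrial markers lie furthest below.

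Smooth muscle, atrial and mast cell markers varied too. Acta2, smooth muscle actin, had 1560, 1188 and 886.7 normalised counts in WT against 2385, 2339 and 2668 in LXR-DKO, above all 8 other libraries (difference 1.06, SE 0.23, limma adjusted p 0.104), while the other 9 tested markers of pericytes and smooth muscle were below WT. Atrial markers were below WT in 9 of 9 tested genes with a median of -1.48, but their sums ran from 12149 to 41752 in WT and from 9836 to 28592 in LXR-DKO, so the groups overlapped. Airway and lung markers summed to 47.1 in LXR-DKO 2 and to at most 12.0 in the other 10 libraries. Mast cell markers had a median of 0.72 with sums of 127.6 to 211.8 and 146.4 to 193.6. The part of atrial tissue in the values of other genes was not tested.

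Set against the other 3 groups together, LXR-DKO hearts differed in 114 genes (0.821% of those tested), 58 higher and 56 lower (0.403%). This comparison includes the WT libraries and so is not independent of the first. The count was 51 without LXR-DKO 2, 59 without LXR-DKO 1, 74 and 71 without WT 2 or WT 3, and 316 and 796 without Mertk-KO 1 or Mertk-KO 2. Kcnj14 (5.61), Klk1b22 (5.77), Gabrg3 (4.72), Igsf23 (3.04) and Ush1c (2.52) had the largest rises by the naming rule, and Slc6a17 (-4.56), Unc5a (-4.23), Xlr3b (-3.76), Zfp429 (-3.11) and Nr1h2 (-2.65) the largest falls, all with a limma adjusted p below 0.05. Zfp429, a zinc-finger gene of chromosome 13 close to Rsl1, had 9.67, 0 and 1.47 normalised counts in LXR-DKO against 18.1 to 39.8 in the 8 others (limma adjusted p 0.023, against 0.103 in the comparison with WT). Part of its transcript is 97.2% identical to that of Rsl1.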

How the data were processed

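RNA sequencing of whole hearts was analysed in 11 libraries, of which the 3 LXR-DKO and 3 WT libraries form the main comparison, grouped by their titles. CASAVA 1.8.2, cutadapt, RSEM 1.2.20, kallisto 0.43.1 and the GRCm38 build appear in the submitters' processing notes, without saying which tool made which table. The first table holds, as a deposited signal per gene, a gene's reads plus 0.5, divided by an effective size of the library (35584 genes), as read from its values. The second table, deposited by the authors as normalised TPM, is also a signal (33318 genes). Between 59.2% and 63.0% of low values came out as whole reads within 0.01, so no model of whole counts was used. Estimated reads were scaled to the mean effective size of 15388737, and a floor of 3 reads was used for bounds.

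Genes with a mean of at least 10 were tested with limma 3.58.1 in R 4.3.3 on log2(value + 1), with a trended prior, two-sided, in 1 model of the 4 groups (residual degrees of freedom 7), adjusted over all genes. The test was tried on simulated data first. Named are the receptor genes, the 10 higher and 10 lower called genes of largest change without overlap (predicted models and pseudogenes left out), 8 and 8 by the same rule off chromosomes 2 and 7, called genes within 10 Mb of either receptor gene, passing LXR targets, up to 4 members of smallest p of each of the other lists, and 5 and 5 against the other groups. Other LXR targets, neighbours and copies were named after their values were seen. Members and lists (28 of pathways, 18 of cell markers) were chosen with earlier results of these data known. Alternatives were another table, filter, pseudocount, scaling and set of libraries, a length and GC correction and a replicate block. Same-numbered LXR-DKO and WT libraries deviated together at correlations of -0.0681, 0.000176 and 0.0554, so numbers were not taken as pairs.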

Additional observations from a re-analysis of the deposited data

Results flagged for a closer look

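The second table, used above only as an alternative, held 6 genes that passed there and are absent from the first, all of them pseudogenes. 4 were higher in LXR-DKO hearts and at or near 0 in WT, and 2 were lower: Gm2223 (mean 4.48 in WT, listed at 0 in LXR-DKO and in Mertk-KO) and Gm4366 (mean 12.5 in WT and at most 0.00177 in LXR-DKO). Rpl34-ps1 (chr6:71124610-71124963), 99.4% identical to the ribosomal gene Rpl34, was at 253.8 ± 12.7 (normalised TPM, SD, n = 3) in LXR-DKO and listed at 0 in the 8 other libraries, while Rpl34 itself had 279.4 ± 17.5 in WT hearts and 158.8 ± 20.5 in LXR-DKO. Their sum was 412.6 ± 29.96 in LXR-DKO, and in the first table, where Rpl34-ps1 has no row, Rpl34 had 1463 normalised counts in LXR-DKO against 1123 in WT. Gm3608, 99.6% identical to Capza1, was at 7.474 (mean, n = 3) in LXR-DKO and at most 0.438 elsewhere, with Capza1 at 7.25 in LXR-DKO and 17.3 in WT. Gm12537 was at 4.632, with 1.26, 8.51 and 4.13 in the 3 libraries, and listed at 0 in all others. It is 99.9% identical over its whole length to Gapdh and to further Gapdh copies, so its reads cannot be placed with certainty. Gm3650 had a mean of 4.781 in LXR-DKO against 0.401 in WT, but 4.38 and 6.49 in Mertk-KO and 0.892 to 3.15 in Macrophage-depleted, so that WT was the low group. Its transcript is 99.9% identical over its whole length to Spg11.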

How the results depend on the processing

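All 58 called genes kept their sign in each of the 25 alternatives that tested them, 22 of them planned. The count of called genes was 124 with only the LXR-DKO and WT libraries fitted and 593 with a weight for each library. Leaving out 1 library gave 31 to 118 genes. Voom on estimated reads (50 genes), a per-million scale (25 genes, of 8139 tested) and leaving out both Mertk-KO libraries (117 genes) were chosen after seeing the data. Against the other 3 groups, the count of 114 became 59 in the TPM table, 237 with weights, 59 on the per-million scale, 918 without both Mertk-KO libraries and 51 to 796 with 1 library left out. Nr1h3 was at -0.49 in the TPM table (limma adjusted p 0.343), and the cause was not tested. With the replicate number as a block 53 and 93 genes passed in the 2 comparisons, 47 of the 58 among the former; Nr1h3 was at -2.50 and Nr1h2 at -2.52 in that fit, and since numbers do not pair these libraries, calls lost there are not read as weaker effects. The TPM table called 40 genes against WT, 25 of them among the 58. At these depths 0 reads in a library allow up to 2.78 to 3.62 normalised counts in LXR-DKO, and genes under 10 were not tested.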
